A study of Mus musculus with 7 samples.

Results

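The genes described here encode the protein subunits of oxidative phosphorylation, in both the nuclear and the mitochondrial genome, with cytochrome c and a few assembly factors that share their symbol prefixes. They were chosen by symbol alone: protein-coding genes whose mouse symbol starts with Ndufa, Ndufb, Ndufc, Ndufs, Ndufv, Sdh, Uqcr, Cox4i, Cox5, Cox6, Cox7, Cox8 or Atp5, the genes Cyc1 and Cycs, and the protein-coding genes of the mitochondrial genome. The rule took 112 of the 52636 genes in the count files, 99 nuclear and 13 mitochondrial. The nuclear members are 83 structural subunits, 12 assembly factors, the carrier Cycs and 3 related genes (Cox7a2l, Ndufa4l2 and Atp5s).

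The study sequenced polyadenylated RNA from the dorsal midbrain of 7 newborn mice, 1 library per mouse, to compare tissue with and without the transcription factor Brn3b, the product of Pou4f2. The 3 controls, labelled heterozygote, have En1-Cre, 1 floxed Brn3b allele and 1 wild-type one; they are A2 (postnatal day 4), A4 (day 3) and A6 (day 4). The 4 conditional knockouts (cKO), labelled homozygote, have En1-Cre, 1 floxed Brn3b allele and 1 null one; they are B1 (day 4), B7 (day 2), B8 (day 4) and B9 (day 2). Counts assigned to genes ran from 23588248 in A2 to 87572085 in B9. En1-Cre, a Cre driver active in midbrain and hindbrain, is present in every mouse, so the controls too have their floxed allele deleted where it is active, and that allele then expresses alkaline phosphatase. Mice of day 2 are found among the knockouts only, so that age and genotype cannot be told apart there. Mice could not be paired across genotypes, whose replicate numbers all differ.

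The labelled genotype and region were checked first. Pou4f2 (chr8:78433010-78436645, minus strand) stood at 46.5, 47.4 and 45.8 CPM (counts scaled to library size) in A2, A4 and A6, and at 9.65, 9.67, 10.6 and 11.6 CPM in B1, B7, B8 and B9. All 4 knockouts were far below all 3 controls, with means of 10.4 ± 0.920 (SD, n = 4) and 46.6 ± 0.824 (SD, n = 3) and an edgeR log2 fold change of -2.16 (adjusted p = 5.66e-04; -2.18 without B8). Of the dorsal midbrain markers 9 of 9 were detected, led by Pou4f1, and their summed level was 448, 496 and 490 CPM in the controls and 407, 471, 422 and 527 CPM in B1, B7, B8 and B9. That sum includes Pou4f2 and hides differences between members: DESeq2 called Tfap2d higher (1.52, adjusted p = 0.0173), and En1 was at 12.3 CPM in B8 and between 2.78 and 7.78 CPM in the other mice. The 4 hindbrain Hox genes together stayed between 0 and 0.212 CPM in every mouse, with Hoxb2 at 0 throughout.

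The knockout B8 stands apart from the others in the genes described here: its Pou4f2 level is that of a knockout, and its oxidative phosphorylation genes sit with those of the controls. In limma's sample weighting B8 received a weight of 0.167, against 0.857 to 2.89 for the other mice. Sums, medians, calls and log2 fold changes of the members are therefore mostly given with B8 and then without it. Sums and values of the marker genes of region and cell type are mostly given with B8 alone. B8 was singled out after its values were seen, and leaving it out leaves 2 of the remaining 3 knockouts at day 2, an age no control has.

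Oxidative phosphorylation passes electrons from NADH and succinate through complexes I to IV of the inner mitochondrial membrane to oxygen, and the proton gradient this builds drives ATP synthesis by complex V. Complexes I, III, IV and V are assembled from subunits of both genomes, while complex II is encoded in the nucleus alone. Mitochondrial messenger RNAs are cut from long transcripts of a circular genome present in many copies per cell, so their levels are set by other machinery than that of nuclear genes; neurons depend on this pathway for most of their ATP.

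The nuclear genes were lower in 3 of the 4 knockouts. Summed over the 99 nuclear members, the level was 10287, 12688 and 10361 CPM in A2, A4 and A6, and 6803, 5650, 10362 and 5742 CPM in B1, B7, B8 and B9. B1, B7 and B9 lay below every control and B8 lay among them, so the groups overlapped. The means were 11112 ± 1365 CPM (SD, n = 3) and 7139 ± 2211 CPM (SD, n = 4), the knockouts at 64.2% of the controls (two-sided exact permutation p = 0.1714; the smallest this design allows is 0.0571). Without B8 the knockouts were at 54.6%, with a mean of 6065 ± 641 CPM (SD, n = 3). In bulk tissue, fewer cells of a type and less RNA per cell cannot be told apart, and these sums are shares of all counted RNA: from 1.05% to 1.26% of counts in the controls, and 0.679%, 0.537%, 1.07% and 0.558% in B1, B7, B8 and B9.

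The mitochondrial genes as a sum differed far less. Their 13 members added up to 39981, 41282 and 37882 CPM in A2, A4 and A6, and to 37276, 36562, 38552 and 38868 CPM in B1, B7, B8 and B9. The knockouts were at 95.2% of the controls (94.6% without B8), with means of 37815 ± 1082 (SD, n = 4) and 39715 ± 1716 (SD, n = 3) and overlapping groups (two-sided exact permutation p = 0.1714). This sum holds genes that went both ways. With B8, mt-Nd5 was at 162% of the controls, and mt-Nd2 and mt-Co1 were at 99.7%. The genes mt-Nd1, mt-Nd4, mt-Nd6 and mt-Cytb were at 85.2%, 74.3%, 86.7% and 86.2%. Within each library, the ratio of the mitochondrial to the nuclear sum was 3.89, 3.25 and 3.66 in the controls and 5.48, 6.47, 3.72 and 6.77 in B1, B7, B8 and B9. The ratio was thus highest in B1, B7 and B9, while B8 lay inside the control range. On the log2 scale it averaged 1.84 ± 0.13 in the controls and 2.45 ± 0.39 in the knockouts, a difference of 0.61 (two-sided exact permutation p = 0.1143) that was 0.79 without B8. This ratio needs no scaling between libraries, and it compares the same 2 sets of genes in each mouse. The sets differ in GC content, with medians of 50.3% for the nuclear members tested and 37.1% for the mitochondrial ones. Corrected for GC content and exon length, the nuclear median log2 fold change went from -0.73 to -0.63 and the mitochondrial from -0.23 to -0.31. Without B8 these went from -1.02 to -0.83 and from -0.31 to -0.37. The 2 medians thus came closer, and the ratio itself was not corrected.

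**Figure D1:**
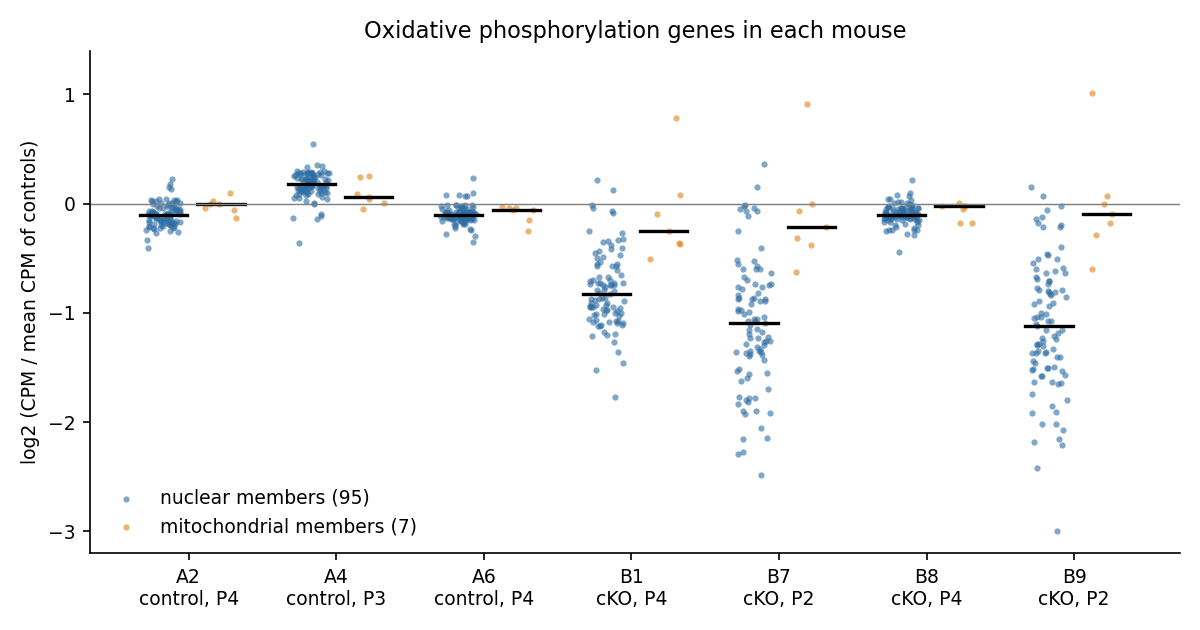
Level of each gene in each mouse, as log2 of its CPM over the mean CPM of the 3 controls (vertical axis; 1 value below -3 is drawn at -3), for the 95 nuclear members with a mean of at least 1 CPM (blue) and the 7 mitochondrial members with a mean of at least 1000 CPM (orange); black bars are medians. The nuclear points of B1, B7 and B9 lie mostly below 0, and those of B8 lie at the level of the controls.

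Gene by gene, 96 of the 99 nuclear members had enough counts to be tested, and 94 of these had a log2 fold change below 0 (97.9%, against 49.8% of all 21817 genes tested). Their median was -0.73, from -1.74 to 0.16, beside a median of 0.00 over all genes. At an adjusted p under 0.05 edgeR called 0 of them, and of all genes it called only Pou4f2 (0.00458%). The smallest adjusted p among the nuclear members was 0.138. At an unadjusted p under 0.05 edgeR had 77 of them lower (80.2%) and 0 higher, where 13.7% of all genes were lower and 16.7% higher. DESeq2 called 27 of 95 lower at an adjusted p under 0.05 and 0 higher, against 3.04% and 7.41% of all genes. Without B8, edgeR called 81 of 95 lower (85.3%) and 0 higher, against 23.1% and 23.7% of all genes, and the median moved to -1.02. All 4 knockouts lay below all 3 controls in 27 of the 96 (28.1%) and above them in 0, against 8.01% and 6.03% of all genes.

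Counted mouse by mouse, the level was below the lowest control for 91 of the 96 nuclear genes in B1, for 87 in B7 and for 91 in B9, against 31 in B8. Over all genes tested B1 had 38.2%, B7 39.8%, B8 21.6% and B9 39.2% of genes below the lowest control. The median log2 deviation of the nuclear genes from the control mean was -0.83 for B1, -1.09 for B7, -0.09 for B8 and -1.13 for B9. Among the controls it was -0.09 in A2, 0.18 in A4 and -0.10 in A6, so that A4, the day 3 mouse, had the highest levels of all 7. Among mice of day 4 alone, which sets A2 and A6 against B1 and B8, the median log2 fold change of the nuclear genes was -0.31.

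Complex I, the NADH dehydrogenase that takes in most electrons, had 36 nuclear structural members, all tested, with a median log2 fold change of -0.77 (-1.15 without B8). DESeq2 called 11 of them lower, against 3.04% of all genes, and edgeR without B8 called 33 lower, against 23.1% of all genes. Neither called any of the 36 higher. Their summed level was 3086 ± 402 CPM in the controls (SD, n = 3) and 1921 ± 680 CPM in the knockouts (SD, n = 4), or 62.2% (51.5% without B8). The 7 core subunits, which carry the redox centres, had a median of -0.56 (-0.78 without B8), and the 29 accessory subunits, which build the shell around them, one of -0.81 (-1.20 without B8).

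The nuclear complex I gene with the highest level per kilobase of exon was the accessory subunit gene Ndufc2 (132 CPM per kb over all mice), at 126, 142 and 125 CPM in A2, A4 and A6 and 78.3, 55.0, 119 and 53.3 CPM in B1, B7, B8 and B9. Every knockout lay below every control, B8 narrowly, and the log2 fold change was -0.78 (edgeR adjusted p = 0.138, DESeq2 adjusted p = 0.0495; -1.08 without B8). Next came the accessory subunit genes Ndufa1 (91.5 CPM per kb), with a log2 fold change of -0.90 (-1.33 without B8), and Ndufa8 (87.6 CPM per kb), with -0.73 (-1.04 without B8). The lowest log2 fold change of the nuclear complex I subunits was that of Ndufa2, an accessory subunit gene, at 53.4, 72.0 and 53.4 CPM in the controls and 23.3, 12.3, 49.2 and 14.2 CPM in B1, B7, B8 and B9 (log2 fold change -1.27, DESeq2 adjusted p = 0.0341; -1.86 without B8). The highest value among these nuclear subunits was that of Ndufs1, which encodes the largest core subunit with several of the iron-sulfur clusters, at 109, 109 and 107 CPM in the controls and 119, 121, 106 and 114 CPM in the knockouts. Its groups overlapped through B8 (114.8 ± 6.47 against 108.6 ± 1.02 CPM, SD, n = 4 and 3), and its log2 fold change of 0.08 (0.11 without B8) turned to -0.32 once GC content and exon length were corrected for.

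Complex II, succinate dehydrogenase, the enzyme that also belongs to the citric acid cycle, was nearer to the controls, with 79.6% of their summed level (73.6% without B8) and a median of -0.46 (-0.62 without B8). Of its 4 structural genes DESeq2 called 0, against 3.04% of all genes called lower. With B8 in place edgeR called 0, with 3 lower at an unadjusted p under 0.05, against 13.7% of all genes. Without B8 edgeR called 3 lower, against 23.1% of all genes. The membrane anchor gene Sdhd had the highest level (75.2 CPM per kb), at 112, 114 and 103 CPM in the controls and 81.6, 64.9, 104 and 67.2 CPM in B1, B7, B8 and B9, a log2 fold change of -0.47 (-0.63 without B8). Sdhb (49.1 CPM per kb), the iron-sulfur subunit, had one of -0.59 (-0.82 without B8). Sdha (45.1 CPM per kb), the flavoprotein that oxidises succinate, held its level: 180, 207 and 178 CPM in the controls and 180, 183, 194 and 181 CPM in the knockouts. B1, B7 and B9 were inside the control range for Sdha, unlike for its partners, with a log2 fold change of -0.03 (-0.06 without B8); the fit on day 4 mice alone gave 0.06.

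Complex III, which passes electrons from ubiquinol to cytochrome c, had 9 nuclear structural genes with a median of -0.79 (-1.11 without B8), of which DESeq2 called 2 lower and edgeR without B8 called 8 lower. Of all genes, DESeq2 called 3.04% lower and edgeR without B8 called 23.1% lower. The summed level of complex III was 61.7% of the controls (51.4% without B8). Uqcr10 (126 CPM per kb), a small accessory subunit gene, was at 95.7, 130.4 and 94.1 CPM in A2, A4 and A6 and 49.0, 23.9, 96.7 and 26.3 CPM in B1, B7, B8 and B9. B7 and B9 held the lowest levels and B8 overlapped the controls, with a log2 fold change of -1.13 (-1.70 without B8). Uqcrh (105 CPM per kb), the hinge protein gene, had -0.85 (DESeq2 adjusted p = 0.0471; -1.18 without B8), and Uqcrfs1 (85.9 CPM per kb), the Rieske iron-sulfur protein gene, had -0.55 (-0.73 without B8). The small subunit gene Uqcr11 was at 53.6, 66.6 and 51.6 CPM in the controls and 23.9, 12.96, 53.1 and 12.6 CPM in the knockouts, with a log2 fold change of -1.16 (-1.82 without B8). Cyc1, which encodes the cytochrome c1 that hands electrons on, was at 182, 225 and 182 CPM in the controls and 121, 76.7, 182 and 76.0 CPM in B1, B7, B8 and B9 (-0.79; -1.11 without B8). Uqcrc2, a large subunit gene of the matrix side, was among the least different, at 138, 138 and 126 CPM and 126, 128, 126 and 123 CPM (-0.09; -0.10 without B8), and was picked out after its values were seen. Cycs, the gene of cytochrome c itself, the soluble carrier between complexes III and IV, was counted at 2.74 CPM per kb, with 9.50, 12.4 and 11.9 CPM in the controls, 7.69, 6.74, 10.9 and 6.07 CPM in the knockouts and a log2 fold change of -0.52 (-0.73 without B8). Its level may be too low, since 28.0% of its 100-base windows occur in the gene Gm10053, but this was not tested. Gm10053 had 364, 526 and 337 counts in the controls and 383, 619, 546 and 673 counts in the knockouts. These counts are not scaled to library size, which was largest in B7 and B9, and do not compare the groups.

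Complex IV, cytochrome c oxidase, which reduces oxygen to water, had the lowest summed nuclear level of the 5 complexes relative to the controls, 55.5% (43.4% without B8). The sum was 1884, 2402 and 1947 CPM in the controls and 1077, 794, 1914 and 831 CPM in B1, B7, B8 and B9 (two-sided exact permutation p = 0.1143). Of its 18 nuclear structural genes 15 were tested, with a median of -0.81 (-1.18 without B8). DESeq2 called 4 lower of 14, against 3.04% of all genes. Without B8 edgeR called 13 lower of 14, against 23.1% of all genes. Cox8a had the highest level per kilobase of all nuclear members (294), at 223, 316 and 239 CPM in the controls and 123, 69.7, 234 and 68.7 CPM in B1, B7, B8 and B9. B8 lay between the controls A2 and A6 and the other knockouts lay far below, with a log2 fold change of -1.06 (DESeq2 adjusted p = 0.0494; -1.58 without B8). Cox6b1 (270 CPM per kb), which faces the intermembrane space, was at 227, 299 and 236 CPM and 119, 106, 246 and 108 CPM in the same order (-0.81; -1.20 without B8). Cox6a1 (227 CPM per kb) was at 188, 264 and 207 CPM and 103, 67.8, 214 and 70.9 CPM (-0.95; -1.46 without B8). Ndufa4, a subunit of complex IV despite its symbol, was at 243, 284 and 252 CPM in the controls and 138, 91.0, 219 and 100.4 CPM in the knockouts, every knockout below every control, with a log2 fold change of -0.92 (DESeq2 adjusted p = 0.0329; -1.25 without B8).

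Several complex IV subunits have paired genes, 1 used in most tissues and 1 best known from heart and skeletal muscle, testis or lung. In this tissue the general form led by far in each set, as levels per kilobase over all mice. Cox4i1 stood at 195 CPM per kb against 1.36 for Cox4i2, the form known from lung. Cox6a1 stood at 227 against 0.270 for the heart and muscle form Cox6a2, whose counts were 10, 11 and 7 in the controls and 0, 7, 5 and 9 in the knockouts. Cox7a2 stood at 158 and the related Cox7a2l, which acts in joining complexes III and IV, at 56.3, against 2.54 for the heart and muscle form Cox7a1. Cox6b1 stood at 270 and the testis form Cox6b2 at 8.95; Cox8a at 294 and the muscle form Cox8b at 0.0682, with 0 to 2 counts per mouse. Cox8c, a testis form, had 0 counts in every mouse, and with Cox7b2 and Cox8b it was too low to be tested.

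For the tested pairs, as for 94 of the 96 nuclear members, the log2 fold changes were below 0. The lowest of all nuclear members, -1.74, was that of Cox6a2 on few counts (-0.95 for Cox6a1), and Cox6a2 was too low to be tested without B8. The log2 fold change was -0.73 for Cox4i1 (DESeq2 adjusted p = 0.0476) and -0.58 for Cox4i2, -0.97 for Cox7a2 and -1.09 for Cox7a1, and -0.81 for Cox6b1 and -1.23 for Cox6b2. Cox4i2 did not pass edgeR's test with B8 or without it. Without B8 these values were -0.99 and -0.99, -1.41 and -1.85, and -1.20 and -1.91. Cox6b2 was at 14.1, 17.9 and 12.1 CPM in the controls and 6.34, 3.01, 13.2 and 2.75 CPM in B1, B7, B8 and B9, so that B8 again sat with the controls. Ndufa4 (137 CPM per kb) and its low paralogue Ndufa4l2 (2.45 CPM per kb), known as a gene induced by low oxygen, had -0.92 and -0.98 (-1.25 and -1.42 without B8). The 5 muscle markers, Acta1 the most abundant, added up to 7.84, 9.69 and 8.18 CPM in the controls and 6.87, 5.90, 8.30 and 5.97 CPM in the knockouts. Of these markers 3 were tested, and edgeR without B8 called 2 lower, Acta1 (-0.58; -0.79 without B8) and Myl2 (-0.64; -1.56 without B8). The part of muscle in the levels of the muscle forms was not tested.

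Complex V, the ATP synthase, had 16 nuclear structural genes with a median of -0.69 (-0.98 without B8), 6 called lower by DESeq2 and 14 by edgeR without B8, and a summed level at 67.9% of the controls (59.7% without B8). Of all genes, DESeq2 called 3.04% lower and edgeR without B8 called 23.1% lower. For 9 of the 16 (56.25%) every knockout lay below every control, against 8.01% of all genes. The genes of the large subunits of its catalytic head were less shifted than that median: Atp5a1 (222 CPM per kb), the alpha subunit, was at 742, 871 and 725 CPM in the controls and 617, 587, 743 and 590.2 CPM in B1, B7, B8 and B9 (-0.30; -0.38 without B8), and Atp5b (218 CPM per kb), the beta subunit that makes ATP, was at 1019, 1192 and 1017 CPM and 787, 724, 1025 and 713 CPM (-0.41; -0.54 without B8). B8 was inside the control range for both. Atp5e, the small epsilon subunit of the central stalk, had the lowest log2 fold change of the 95 nuclear members with a mean of at least 1 CPM, -1.44 with an SE of 0.46 (edgeR adjusted p = 0.138, DESeq2 adjusted p = 0.0257; -2.02 with edgeR adjusted p = 1.53e-04 without B8). Its level was 114, 219.9 and 118 CPM in A2, A4 and A6 and 52.6, 26.9, 111.1 and 32.5 CPM in the knockouts. All 4 knockouts were below all 3 controls (151 ± 59.9 against 55.8 ± 38.5 CPM, SD, n = 3 and 4; two-sided exact permutation p = 0.0571), though B8 only just.

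The c subunit, whose ring turns in the membrane, is encoded by 3 genes that give the same mature protein. Atp5g3 led with 111 CPM per kb, at 288, 391 and 296 CPM in the controls and 169, 127, 295 and 134 CPM in B1, B7, B8 and B9 (-0.84, DESeq2 adjusted p = 0.0464; -1.19 without B8). Atp5g1 followed at 7.95 CPM per kb (-0.71; -0.99 without B8) and Atp5g2 at 0.762 (-0.49; -0.60 without B8). The level of Atp5g2 may be too low, which was not tested: 86.4% of the 100-base windows of its transcript occur, with at most 2 differences, in the gene Gm10175, and a read that maps to several places need not be counted.

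The 12 assembly factors, which help to build complexes I and II and are not part of them, had a median of -0.48 (-0.62 without B8). DESeq2 called 4 lower, against 3.04% of all genes, and edgeR without B8 called 7 lower, against 23.1% of all genes. Neither called any of the 12 higher. Their summed level was 79.0% of the controls, or 74.4% without B8 (286.6 ± 22.3 against 226.5 ± 26.6 CPM, SD, n = 3 and 4). The 8 Ndufaf genes included Ndufaf1, an early factor of complex I, at 18.6, 17.7 and 14.6 CPM in the controls and 16.5, 15.7, 17.8 and 15.4 CPM in the knockouts, with overlapping groups and a log2 fold change of -0.05 (-0.10 without B8) that was 0.05 in mice of day 4 alone. Sdhaf3, a complex II factor, had the highest log2 fold change of the nuclear members, 0.16 (0.25 without B8), at 12.8, 11.4 and 13.4 CPM and 14.5, 16.2, 11.3 and 13.9 CPM. It also overlapped between groups, and the sign turned after the correction for GC content and exon length (-0.14) and in mice of day 4 (-0.02).

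Many of the nuclear members have short transcripts, though 26 of the 96 tested are over 1500 bases long. The principal transcript of the tested nuclear members had a median of 921 bases, against 3013 bases over the 15513 protein-coding genes tested. In both sets the log2 fold change followed length. Among transcripts of up to 750 bases, the median log2 fold change was -0.86 (-1.23 without B8) for 39 nuclear members and -0.72 (-1.04) for all 396 protein-coding genes, of which 87.9% were below 0. Above that and up to 1500 bases it was -0.73 (-1.02) for 31 members and -0.49 (-0.69) for 1934 genes, and 86.7% of these were below 0. Over 1500 bases it was -0.43 (-0.61) for 26 members and 0.08 (0.11) for 13183 genes, with 43.2% below 0. So short transcripts in general were lower in the knockouts, and the members were lower than the median of their own length class in each of the 3 classes, a difference of medians that was not tested. Lengths were not matched within a class, and the class over 1500 bases has no upper limit. The difference of medians can therefore include one of length.

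Across genes, Spearman's rho between log2 fold change and transcript length was 0.63 over the 96 nuclear members and 0.62 over the 15513 genes; between log2 fold change and GC content it was -0.54 and -0.45. Without B8 rho with length was 0.62 over 95 members and 0.64 over 15298 genes, and rho with GC content -0.54 and -0.48. Genes are not independent replicates, and these values describe the spread among genes only. The length pattern was again that of 3 knockouts: for members of up to 750 bases the median deviation from the controls was -0.97 for B1, -1.36 for B7, -0.10 for B8 and -1.38 for B9, and for all protein-coding genes of that length it was -0.78, -1.13, -0.08 and -1.05. When GC content and exon length were fitted and removed within each library, the median of the nuclear members went from -0.73 to -0.63 and, without B8, from -1.02 to -0.83, beside a median of -0.04 over all genes in both cases. With that correction and without B8, edgeR called 81 of the nuclear members lower and 0 higher, against 19.1% and 14.1% of all genes. Over the members rho with length was 0.47 after the correction and rho with GC content 0.02, so the length trend was reduced and not removed. The 3 highest log2 fold changes, those of Sdhaf3, Ndufs1 and Sdha, belong to long transcripts, and the lowest of the well-counted genes, that of Atp5e, to a short one of 421 bases.

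**Figure D2:**
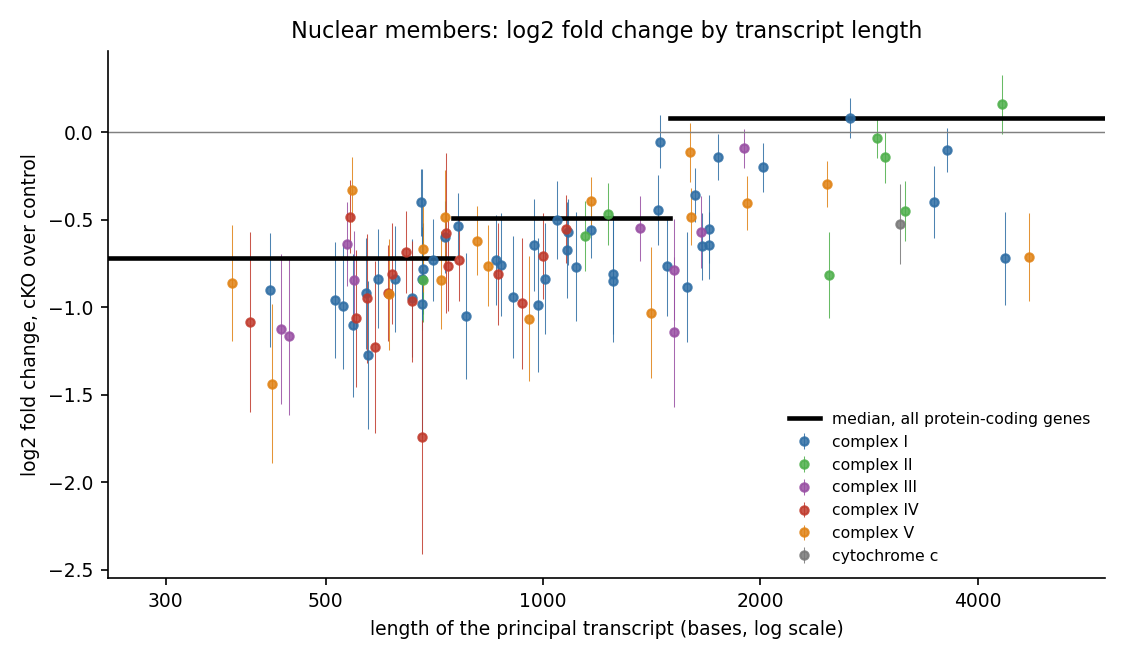
Log2 fold change of cKO over control (vertical axis; bars are 1 SE of the edgeR fit on 3 and 4 mice) against the length of the principal transcript in bases (horizontal log axis) for the 96 nuclear members tested, coloured by complex. Black lines are the medians of all protein-coding genes tested in 3 length classes, -0.72, -0.49 and 0.08.

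Subunit genes of this kind have left many processed copies in the genome. Of the 99 nuclear members, 43 share at least 1 window of 100 bases, with at most 2 differences, with another annotated gene. In 17 members 25% of the windows or more are shared. Not all of these other genes are copies: some overlap the member, as Emc8 does Cox4i1 and Smim27 does Ndufb6. The same direction was found in the members without shared windows. The 53 of these that were tested had a median of -0.77 (-1.10 without B8). Without B8 edgeR called 44 of 52 of them lower, against 23.1% of all genes. The copies themselves were also counted. The pairs of gene and copy described next were picked after the values were seen.

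Ndufs5, an accessory subunit gene of complex I, shows such a pair in a single mouse. It was counted at 19.8, 24.5 and 21.4 CPM in the controls and 12.1, 10.9, 21.2 and 0.517 CPM in B1, B7, B8 and B9, the last far below all others. Its copy BC002163 (chr16:42955631-42955949, plus strand) was counted at 36.5, 43.6 and 37.3 CPM and at 21.4, 17.3, 37.1 and 30.5 CPM, with B9 above B1 and B7. The sum of both was 56.3, 68.2 and 58.8 CPM in the controls and 33.5, 28.2, 58.4 and 31.0 CPM in the knockouts, where B9 stands beside B1 and B7. The 2 transcripts have 2 differences over the 319 bases aligned, and both fall in the stretch shown, 5′ to 3′ from the GRCm38 transcripts, of Ndufs5 (chr4:123712710-123718202, minus strand) and its copy, with the differing bases in capitals.
Ndufs5: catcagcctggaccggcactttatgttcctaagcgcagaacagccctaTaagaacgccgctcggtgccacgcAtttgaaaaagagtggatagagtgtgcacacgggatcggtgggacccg
BC002163: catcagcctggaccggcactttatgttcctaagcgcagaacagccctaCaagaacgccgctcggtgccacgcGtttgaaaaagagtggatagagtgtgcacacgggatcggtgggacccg
The split of counts between the 2 genes thus differed in B9 from that in the other 6 mice.

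Many other copies also carried counts. In 5 that were picked from them, B1, B7 and B9 lay below every control, which need not hold for the rest. Gm10250, a copy of the ATP synthase gene Atp5h, was at 103.7, 135 and 110.1 CPM in the controls and 63.0, 54.6, 110.1 and 51.3 CPM in B1, B7, B8 and B9. Gm10221, a copy of Atp5l, was at 72.6, 75.3 and 76.7 CPM and 39.1, 24.9, 67.1 and 29.2 CPM, 7.72 times the mean CPM of Atp5l itself, not scaled by length. Copies of the complex IV gene Cox5b (Gm11273), of the complex I gene Ndufs3 (Gm12251) and of Uqcr11 (Gm16418) had log2 fold changes of -0.91, -0.73 and -1.10 (-1.31, -1.05 and -1.75 without B8). Of the 6 copies named, 6 had a log2 fold change below 0 and 6 were called lower by edgeR without B8, while edgeR called 0 with B8 in place, with 6 lower at an unadjusted p under 0.05, and DESeq2 called 2 lower; 5 carried more counts than the gene they resemble. The levels of these genes, and of other members with counted copies, may be too low in CPM per kb and in the sums of their complexes, which was not tested.

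The promoters of the nuclear members were searched for the letters bound by regulators long known for this pathway. Of the 99, 79 matched an entry among the RefSeq promoters of GRCm38.p6, which run from 250 bases before to 50 bases after the start. The NRF1 letters GCGCANGCG occurred on either strand in 25 of the 79 (31.6%), in 7.03% of all 27025 promoters and in 12.8% of those of the genes tested. The ETS letters CCGGAAG, which GABP binds, occurred in 21 (26.6%), against 9.93% and 16.6%, and the YY1 letters AAGATGGC in 10 (12.7%), against 3.19% and 4.39%. The ETS letters end and the YY1 letters begin with AAG, so that a run can hold both; any of the 3 motifs occurred in 46 members (58.2%), against 17.8% of all promoters and 29.3% of those of the genes tested. A match describes letters and is not a site of binding. Stretches of 4 promoters are shown, picked from the named members with a match: Cox8a with the highest level, Atp5e and Uqcr11 among the lowest log2 fold changes, and Sdha among the highest. Ndufa2 and Cox6b2, with lower log2 fold changes than Uqcr11, and Ndufs1, with a higher one than Sdha, have no match among the promoters searched. Sdhaf3, with the highest log2 fold change of the nuclear members, has both an NRF1 and an ETS match and is not shown. Matches are in capitals with up to 15 bases on either side (fewer where the window ends), read 5′ to 3′ on the strand of the gene: Cox8a at chr19:7217567-7217636, Atp5e at chr2:174464182-174464218, Uqcr11 at chr10:80406803-80406902 and Sdha at chr13:74350227-74350353, all on the minus strand.
Cox8a: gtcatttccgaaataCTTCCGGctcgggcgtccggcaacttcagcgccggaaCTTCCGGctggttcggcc
Atp5e: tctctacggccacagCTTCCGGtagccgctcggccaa
Uqcr11: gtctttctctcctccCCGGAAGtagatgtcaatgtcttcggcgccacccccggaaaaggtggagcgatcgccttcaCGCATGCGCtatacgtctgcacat
Sdha: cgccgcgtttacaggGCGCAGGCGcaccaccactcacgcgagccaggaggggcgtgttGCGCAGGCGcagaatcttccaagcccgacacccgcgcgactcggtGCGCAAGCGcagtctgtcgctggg
These stretches hold 2 ETS matches in Cox8a, 1 in Atp5e, 1 ETS and 1 NRF1 match in Uqcr11 and 3 NRF1 matches in Sdha. Since these 4 were picked for holding a match, they cannot show how matches relate to log2 fold change, which was not tested.

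The 13 mitochondrial genes fell into 2 classes of level. Of these, 7 were counted at 1000 CPM or more, and 6 at less than 2 CPM or not at all. Per kilobase, mt-Cytb (7074 CPM per kb), mt-Nd1 (7011) and mt-Co1 (6537) stood highest, followed by mt-Nd6 (4147), mt-Nd2 (3432), mt-Nd4 (2810) and mt-Nd5 (2269). The place of mt-Nd6 in this order is uncertain, since it lies on the other strand and the strand setting of the counting is not stated. The other 6, among them genes of the catalytic core of complex IV, were mt-Co2, mt-Co3, mt-Atp6, mt-Atp8, mt-Nd3 and mt-Nd4l, with a range over genes from 0.0344 CPM per kb for mt-Nd4l to 1.79 for mt-Nd3. Counts per mouse ran from 13 to 38 for mt-Co2, from 15 to 39 for mt-Co3, from 21 to 57 for mt-Atp6, from 15 to 33 for mt-Nd3, and from 0 to 3 for both mt-Nd4l and mt-Atp8.

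Of the 6 poorly counted genes, all but mt-Atp8 have a near-perfect copy among the annotated genes of the nuclear genome. Of their 100-base windows, 99.5% of mt-Co2, 99.5% of mt-Atp6, 99.9% of mt-Co3, 98.8% of mt-Nd3 and 98.5% of mt-Nd4l occur in a nuclear copy with at most 2 differences, against 71.1% of mt-Co1 and 60.8% of mt-Nd4. The copies are annotated genes on chromosome 1 and chromosome 2, among them Gm28661 for mt-Co2, Gm10925 for mt-Atp6 and Gm28437 for mt-Co3. The exception, mt-Atp8, shares no window with another annotated gene and overlaps mt-Atp6 by 43 bases. Only annotated transcripts were searched, so a copy outside them would not be found. On chromosome 1 Gm10925 ends at 24614651 and Gm28661 starts at 24614885, and whether a copy of mt-Atp8 lies between them was not tested. The first 120 bases of mt-Co2 (chrM:7013-7696, plus strand) and of its copy Gm28661 (chr1:24614885-24615565, minus strand) are shown because these transcripts have 0 differences over 681 aligned bases; Gm28661 itself had 7 to 47 counts per mouse.
mt-Co2: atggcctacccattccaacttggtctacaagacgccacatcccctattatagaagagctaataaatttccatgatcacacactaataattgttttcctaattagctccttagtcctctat
Gm28661: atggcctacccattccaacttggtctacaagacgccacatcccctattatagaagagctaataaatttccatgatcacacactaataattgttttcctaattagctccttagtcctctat
The values of these 6 genes rest on few counts, and the mitochondrial sums given above rest on the other 7 genes. Whether the copies account for the low counts, or lower those of mt-Co1 and mt-Nd4, was not tested on the reads, which the deposited counts do not hold.

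Of the 11 mitochondrial genes tested, 10 had a log2 fold change below 0, with a median of -0.23 (-0.31 without B8). At an adjusted p under 0.05 edgeR and DESeq2 each called 0; at an unadjusted p under 0.05 edgeR had 1 lower, mt-Nd4, and 1 higher, mt-Nd5. Without B8 edgeR called 3 lower (mt-Nd1, mt-Nd4 and mt-Cytb) and 1 higher (mt-Nd5). The 3 are 27.3% of the mitochondrial genes tested, near the 23.1% of all genes called lower in that fit, and 42.9% of the 7 well-counted ones. In 0 of the 11 did every knockout lie on the same side of every control. For the 7 well-counted genes the median was -0.21 (-0.22 without B8).

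Complex I subunits make up 5 of those 7. mt-Nd1, next to the quinone site, was at 7293, 7544 and 7145 CPM in A2, A4 and A6 and 5656, 5619, 7214 and 6493 CPM in B1, B7, B8 and B9. B1, B7 and B9 were below the controls and B8 among them (log2 fold change -0.23, edgeR adjusted p = 0.221; -0.31 with adjusted p = 0.0252 without B8). mt-Nd2, a proton-pumping subunit, was level, at 3633, 3590.1 and 3484 CPM in the controls and 3332, 3565, 3588 and 3744 CPM in the knockouts, with a log2 fold change of -0.00 and overlapping groups. The pumping subunits mt-Nd4 and mt-Nd5, neighbours on the genome and in the enzyme, went opposite ways. mt-Nd4 was at 4364, 4828 and 4420.3 CPM in the controls and 3184, 2935, 4374 and 2997 CPM in B1, B7, B8 and B9, a log2 fold change of -0.43 with an SE of 0.16 (edgeR adjusted p = 0.138; -0.58 with adjusted p = 5.7e-04 without B8). mt-Nd5 was at 2973, 3622 and 2559 CPM in the controls and 5243, 5725, 2701 and 6153 CPM in the knockouts. B1, B7 and B9 stood well above every control for mt-Nd5 and B8 among the controls, with means of 3051 ± 536 and 4955 ± 1548 CPM (SD, n = 3 and 4) and a log2 fold change of 0.70 with an SE of 0.26 (edgeR adjusted p = 0.138, DESeq2 adjusted p = 0.0677; 0.90 with adjusted p = 2.24e-04 without B8). The difference between both genes was not tested as such. mt-Nd6, the subunit gene on the other strand of the genome, was at 2121, 2769 and 2097 CPM and 1819.8, 2012, 2066 and 2180 CPM (-0.21; -0.22 without B8), with overlapping groups. Whether its counts include reads from the opposite strand was not tested, and the strand setting of the counting is not stated.

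Of the other complexes, mt-Cytb, which holds both hemes b of complex III, was at 8775, 9140 and 8438 CPM in the controls and 7379, 7061, 8649 and 7208 CPM in B1, B7, B8 and B9 (-0.21; -0.29 with edgeR adjusted p = 0.0273 without B8). It is the mitochondrial gene with neither a window shared with another annotated gene nor an overlap with one. The mitochondrial to nuclear log2 ratio with mt-Cytb alone in place of the sum differed by 0.46 between the groups. mt-Co1, the subunit of complex IV where oxygen binds, was at 10820, 9786 and 9736 CPM in the controls and 10660, 9642, 9956 and 10093 CPM in the knockouts. Its groups overlapped throughout, with means of 10114 ± 612 and 10088 ± 425 CPM (SD, n = 3 and 4).

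**Figure D3:**
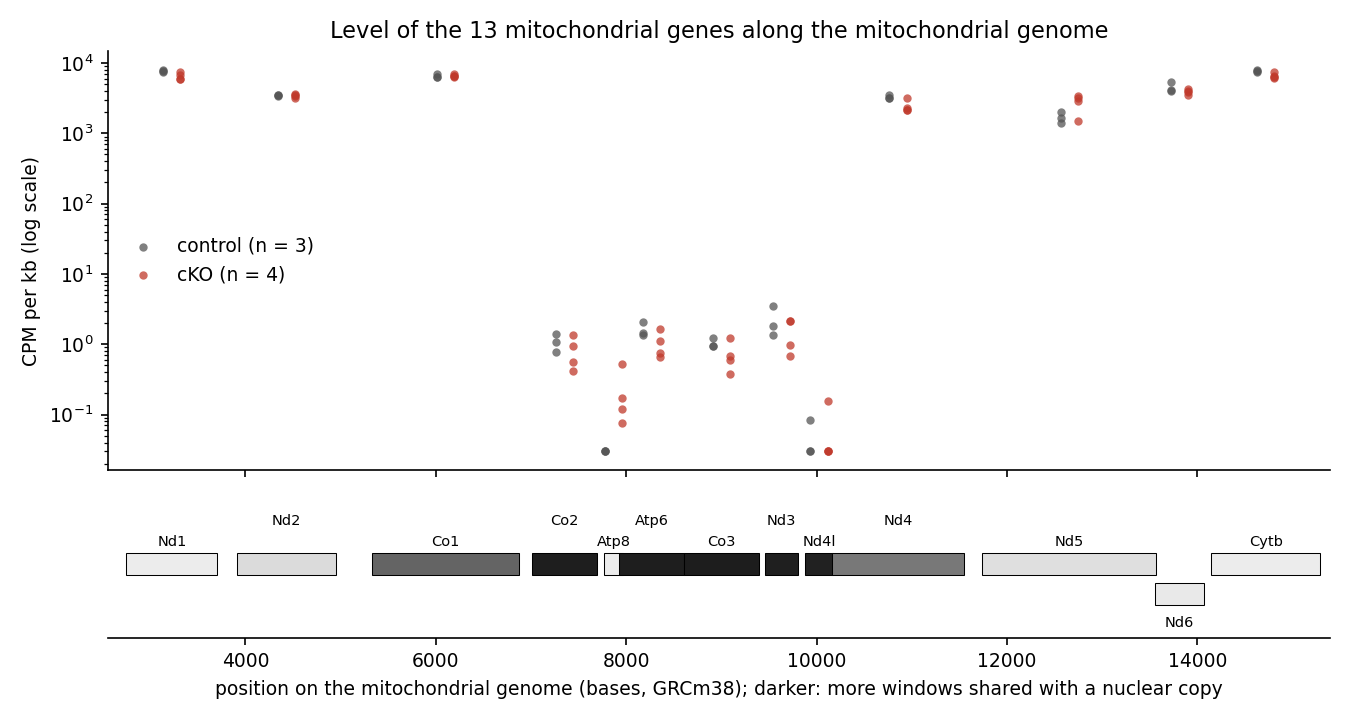
Level of the 13 mitochondrial genes in CPM per kb (upper panel, log axis, 1 point per mouse, grey for 3 controls and red for 4 cKO; values below 0.03 are drawn at 0.03) at their position on the mitochondrial genome in bases. Boxes in the lower panel are the genes, darker where more of their windows occur in an annotated nuclear copy. mt-Nd6 lies on the other strand, and the 6 genes under 2 CPM lie between mt-Co1 and mt-Nd4.

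Set side by side by complex, the nuclear sums of complexes I, III and IV were at 62.2%, 61.7% and 55.5% of the controls, and the mitochondrial sums at 96.8%, 86.2% and 99.7%. Without B8 the nuclear sums were at 51.5%, 51.4% and 43.4%, and the mitochondrial sums at 97.1%, 82.2% and 100.2%. In each of the 3 complexes the nuclear side was thus lower than the mitochondrial side relative to the controls. The mitochondrial sum of complex I includes mt-Nd5, at 162% of the controls with B8, beside mt-Nd1, mt-Nd4 and mt-Nd6, at 85.2%, 74.3% and 86.7%. That of complex IV rests on mt-Co1 almost alone. Per mouse, the median log2 deviation of the 11 mitochondrial genes tested was -0.25 for B1, -0.38 for B7, -0.02 for B8 and -0.28 for B9, beside the nuclear medians of -0.83, -1.09, -0.09 and -1.13. For complex V no such comparison can be made, since mt-Atp6 and mt-Atp8 are hardly counted, and complex II has no mitochondrial gene.

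Genes of the pathway outside the symbol rule were read from 5 lists of 91 symbols, of which 89 were tested and 61 had a log2 fold change below 0. edgeR called 0 of them, with 26 lower and 6 higher at an unadjusted p under 0.05; DESeq2 called 2 lower and 3 higher, and edgeR without B8 called 35 lower and 9 higher. The DESeq2 shares, 2.25% and 3.37%, were no larger than those of all genes (3.04% and 7.41%); without B8, 39.3% were lower and 10.1% higher, against 23.1% and 23.7% of all genes. The nearest to the subunits were 33 further assembly factors, with 29 below 0 and a median of -0.27 (-0.40 without B8). The lowest was Uqcc2, a factor for complex III, at 54.7, 76.1 and 53.6 CPM in the controls and 29.4, 19.0, 55.6 and 20.5 CPM in B1, B7, B8 and B9 (-0.98, DESeq2 adjusted p = 0.0482; -1.43 without B8), and the highest was Coa5, a complex IV factor, with 0.42 (0.52 without B8). Sco2 and Pet117 had no counts. Of 10 carriers and proteins that track mitochondrial mass 8 were below 0, with a median of -0.42 (-0.57 without B8), from Hspe1, a matrix chaperonin partner (-0.69; -0.99 without B8), to Tomm20, an import receptor (0.33; 0.44 without B8). The most abundant of them, the ADP/ATP carrier gene Slc25a4, was at 769, 848 and 736 CPM in the controls and 545, 472, 778 and 466 CPM in the knockouts.

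The other 3 lists cover the citric acid cycle, the mitochondrial genome and regulators. Of 17 citric acid cycle and pyruvate dehydrogenase genes 12 were below 0, with a median of -0.14 (-0.23 without B8), from the malate dehydrogenase gene Mdh2 (-0.62, DESeq2 adjusted p = 0.0491; -0.82 without B8) to Ogdh of the oxoglutarate dehydrogenase (0.28; 0.37 without B8). Of 19 genes for upkeep and transcription of mitochondrial DNA 9 were below 0, with a median of 0.01 (-0.01 without B8). The lowest of these was Slirp (-0.72; -1.09 without B8) and the highest Lrpprc (0.37; 0.49 without B8), which encode the 2 partners of a complex that stabilises mitochondrial messenger RNAs. Of 10 regulators 3 were below 0, with a median of 0.22 (0.30 without B8), from Esrra (-0.85; -1.12 without B8) to Ppara (0.91; 1.03 without B8). DESeq2 called 3 regulators higher, which were named after their values were seen: Gabpa (0.84; 1.02 without B8), the DNA-binding part of GABP, Hcfc1 (0.81; 1.00 without B8), a transcriptional coregulator, and Ppargc1a (0.63; 0.77 without B8), the coactivator PGC-1 alpha.

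Markers of other cells were read in the same libraries. The 7 neuronal markers, Tubb3 the most abundant, added up to 3465, 3911 and 3301 CPM in the controls and 3132, 3125, 3399 and 2855 CPM in B1, B7, B8 and B9; all 7 were detected, 3 with a log2 fold change below 0 and 4 above. DESeq2 called 1 of them, Gad2, higher (0.65, adjusted p = 0.0362), and edgeR without B8 called 2 lower and 3 higher, so the sum follows Tubb3 and not the list as a whole. The 5 astrocyte and radial glia markers, led by Fabp7, added up to 2149, 2110.4 and 1846 CPM and 1787, 1451, 1898 and 1278 CPM, with 2 of 5 below 0. This sum too follows its most abundant gene: DESeq2 called 0 of the 5, edgeR called 0 with 1 lower and 1 higher at an unadjusted p under 0.05, and edgeR without B8 called 1 lower, Fabp7, and 2 higher, Aqp4 and Slc1a3. In both sums B8 sat with the controls, as it did for the subunit genes. The 5 red blood cell markers, led by Hbb-bs, added up to 156, 496 and 132 CPM in the controls and 177, 61.6, 179 and 57.7 CPM in the knockouts, with 5 of 5 below 0. A4 had the most and both day 2 mice the least, and edgeR without B8 called 3 of these markers lower. The 5 microglia markers, led by Csf1r, added up to 108, 129 and 161 CPM and 98.8, 81.0, 116 and 87.9 CPM, with 3 of 5 below 0. DESeq2 called 2 of them lower, the complement genes C1qa (-1.06, adjusted p = 0.0342) and C1qb (-1.17, adjusted p = 0.0262), with B8 again among the controls. The 4 endothelial markers, led by Cldn5, added up to 104, 167 and 127 CPM and 93.6, 99.2, 145 and 127 CPM, with 1 of 4 below 0. Its members went both ways: edgeR without B8 called Cldn5 lower (-0.78; -1.24 without B8) and Flt1 higher (0.37; 0.44 without B8). Cldn5 was at 55.1, 102 and 67.7 CPM in the controls and 31.1, 28.7, 79.4 and 35.9 CPM in B1, B7, B8 and B9.

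The 5 oligodendrocyte lineage markers, led by Olig1, added up to 354, 374 and 321 CPM in the controls and 373, 302, 378 and 275 CPM in the knockouts, with 3 of 5 below 0. Within this list, as among the neuronal markers, members went both ways: edgeR without B8 called 3 lower and 1 higher. Pdgfra, picked after its values were seen, was at 64.7, 64.3 and 63.1 CPM in the controls and 123.9, 120.1, 66.2 and 125.6 CPM in the knockouts, and Olig1 at 153, 168 and 138 CPM and 119, 77.3, 149 and 57.0 CPM. Both DESeq2 and edgeR without B8 called Pdgfra higher (0.77, DESeq2 adjusted p = 0.0316). The 4 markers of dividing cells, led by Top2a, added up to 54.5, 51.0 and 37.2 CPM and 79.5, 62.0, 55.2 and 44.0 CPM, with 2 of 4 below 0; DESeq2 called 1 of them, Mki67, higher (0.87, adjusted p = 0.0322; 1.02 without B8). The 5 telencephalic markers, led by Emx2, added up to 51.2, 62.1 and 52.6 CPM and 43.2, 56.0, 49.6 and 59.1 CPM, with 3 of the 4 tested below 0. The 3 choroid plexus markers, led by Kl, added up to 2.07, 3.52 and 2.81 CPM and 2.74, 3.82, 3.82 and 3.28 CPM. The part of these cell types, and of age, in the levels of the subunit genes was not tested beyond the values given.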

How the data were processed

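The deposited files hold raw counts per gene, which the authors made with TopHat2, Bowtie 2 and HTSeq on GRCm38; HTSeq's strand and overlap settings are not stated. Gene names, lengths and transcripts are from GENCODE (52489 of 52636 identifiers matched). The members, lists and tests were chosen with earlier results of these data known. Counts of 3 control and 4 cKO libraries were fitted in edgeR 4.0.16 (R 4.3.3; filterByExpr with a minimum count of 10 and a total of 15; TMM; quasi-likelihood test on genotype; Benjamini-Hochberg over all genes tested). CPM use TMM library sizes. DESeq2 1.42.0, limma 3.58.1 with quality weights, and a GC and length correction with mgcv 1.9.3 were alternatives. Single values were compared over the 35 splits of the mice. From 31.0% to 38.2% of read pairs per library named no gene. The pipeline was tested on simulated data. Named members are all mitochondrial genes, the 3 highest levels per kb in each complex, Cycs and Cyc1, the 4 lowest and 4 highest log2 fold changes (mean of 1 CPM or more), and the isoform sets; per list of other genes, the lowest and highest.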

Additional observations from a re-analysis of the deposited data

Results flagged for a closer look

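Among the 4 cKO mice, 74 values (levels of the named members and summed levels) were compared for a mouse far from the other 3, and 8 had one. In 6 of them the mouse was B8: Ndufa8 at 92.6 CPM, Sdhb at 128 CPM, Cox6b1 at 246 CPM, Cox7a1 at 2.07 CPM, Ndufa4l2 at 3.40 CPM, and the 12 assembly factors summed at 265.9 CPM, each above the other 3 knockouts and close to the controls. The others were mt-Nd4l at 0.0466 CPM in B7, which is 3 counts, and Cox6a2 at 0 CPM in B1, both on genes near the limit of detection. Chance alone gives about 1 such value in 20 groups, and these values share the same 4 libraries, so they are not independent of each other.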

How the results depend on the processing

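Of the results for the nuclear and mitochondrial gene sets, the counts of called genes moved most. Over all genes edgeR called 1, beside 1994 with DESeq2, 10583 with limma-voom and quality weights, 0 in P4 mice only and 10425 for controls against the P2 cKO mice; leaving out each mouse gave 1 to 9867, the highest without B8. Of the nuclear members edgeR called 0 (77 lower at an unadjusted p under 0.05), beside 27, 84 and, against the P2 mice, 81; leaving out each mouse gave 0 to 81. Of the mitochondrial members it called 0 (1 lower and 1 higher at an unadjusted p under 0.05), beside 5 with limma and 5 against the P2 mice, and 0 to 4 leaving out each mouse. Of the pathway lists it called 0 (26 lower and 6 higher at an unadjusted p under 0.05), beside 5, 48 and 50, and 0 to 44. After the data were seen, 2 alternatives without B8 were added. With the GC and length correction they gave 7012, 81, 4 and 45, and with DESeq2 9951, 81, 4 and 44. The nuclear median of -0.73 was -0.31 in P4 mice only, -0.40 against the P4 cKO mice and -1.13 against the P2 mice. The mitochondrial median of -0.23 was -0.10 in P4 mice only, -0.089 against the P4 cKO mice and -0.37 with the correction and without B8. The mitochondrial to nuclear log2 ratio differed by 0.46 to 0.79 over its alternatives.

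Of 958 values for 46 single genes under alternatives, 765 kept direction and side of the threshold, 1 lost and 166 gained a call, and 26 turned in sign. mt-Nd2 was 0.0057 with protein-coding genes only, 0.016 against the P2 mice and -0.023 to 0.023 leaving out each mouse. mt-Co1 was 0.0063 with protein-coding genes only, 0.021 with age as a covariate, 0.0054 in P4 mice, 0.032 against the P4 cKO mice, 0.0083 with DESeq2 without B8 and -0.034 to 0.038 leaving out each mouse. mt-Co2 was 0.32 in P4 mice and 0.097 against the P4 cKO mice. Sdha was 0.064 in P4 mice and -0.074 to 0.042 leaving out each mouse. Sdhaf3 was -0.021 in P4 mice and -0.14 with the correction, with B8 and without. Ndufs1 was -0.32 with the correction and -0.43 with it and without B8. Ndufaf1 was 0.051 in P4 mice, 0.022 against the P4 cKO mice, 0.028 with counts thinned to the smallest library and -0.15 to 0.0089 leaving out each mouse. Atp5g2 was 0.0060 with the correction and without B8. The cause was not tested. Counts under 100 per mouse limit the precision for 6 mitochondrial genes, Atp5g2, Cox4i2, Cox6a2, Cox7a1, Cox7b2, Cox8b and Cox8c; why these mitochondrial genes are counted so little was not tested.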
